A study of Rattus norvegicus with 12 samples.

Results

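The cytosolic ribosomal protein genes were followed in rat calvarial bone, the flat bone of the skull roof. Members were the array probes whose gene name in the scanner files begins with Rpl, Rps, Rplp or Rpsp and a digit, without the Rps6k kinases. This took 212 of 45598 rat probes, which carry 88 gene names. Of these, 196 probes stand for the 76 canonical genes of the list used here (46 of the large 60S subunit and 30 of the small 40S subunit). A further 12 probes stand for 8 paralogs whose names end in l or l and a digit. The remaining 4 probes, for Rps19bp1, Rps4y2, Rpl37a-ps1 and Rps4x-ps1, were described apart.

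The rats were 10 weeks old, bone was taken 24 h after the operation, and each of the 12 samples was read on an Agilent array of its own, 4 for each of 3 groups. In the bur group a bone defect of 8 by 3 mm was cut with a rotating drill at a feed of about 0.75 mm/s. In the laser group the same defect was cut with an Er:YAG laser, whose infrared light is taken up by the water in tissue, in 3 strokes of 20 Hz and 127 mJ per pulse, moved at about 2 mm/s. Control bone was stripped of its periosteum, the covering membrane, but not cut. Strain and sex are not given. Nor do the labels say whether each sample was a different animal, so the p-values reflect the spread between samples and no more.

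Slide 1 held the bur and the control arrays, each group in its own column, and slide 2, scanned separately, held the laser arrays. Slide and laser treatment therefore cannot be told apart in any value that sets laser arrays against the others, nor can slide column and treatment for bur against control. The median processed signal was 55.6 to 81.9 on laser arrays, 18.6 to 28.3 on bur arrays and 16.5 to 43.2 on control arrays. Between 67.5% and 72.0% of spots were well above background on laser arrays, against 57.0% to 59.9% on bur and 57.2% to 64.4% on control arrays. In control samples the summed level of the neural markers ranged from 486 to 11223 on the linear scale, against 150 to 1099 in bur and 244 to 464 in laser samples, with 3 of 7 called lower in each cut group. Bone identity was plain in all groups, with a summed level of osteoblast and osteocyte markers of at least 98136 on every array. Of these 10 genes 2 were higher after bur drilling and 5 after laser ablation. Markers of red cell precursors were lower in both cut groups, with 9 of 10 called in each. Of 7 monocyte and macrophage markers 6 were higher after bur drilling and 4 after laser ablation. Of 7 neutrophil markers 3 were higher and 0 lower after laser ablation, with a median log2 fold change of -0.07. After bur drilling 0 of them were higher and 1 lower, with a median of -0.80. Of 10 cell cycle genes, 10 were called lower after bur drilling and 9 after laser ablation. In bulk bone, fewer cells of a type and less RNA per cell cannot be told apart. The part of slide, signal strength and cell makeup in the results was not tested.

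Ribosomal proteins join ribosomal RNA in the particle that translates mRNA, and each is built into the small subunit, which reads the message, or the large subunit, which joins amino acids. Their mRNAs begin with a terminal oligopyrimidine tract, through which growth signals acting on the mTOR kinase and the protein Larp1 control their translation together. The mRNAs are among the most abundant of any tissue, including marrow-bearing bone, and their genes have many processed copies elsewhere in the genome. Some members have a second, related gene whose protein can take the same place in the ribosome.

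Ribosomal protein transcripts were among the brightest signals on every array. The median over the 76 canonical genes, each by its brightest probe, lay above the 99.4th percentile of all kept probes on each of the 12 arrays. After quantile normalization, which gives all arrays the same distribution, that median was 14.97 ± 0.07 (SD, n = 4) log2 on bur, 14.93 ± 0.04 on laser and 14.96 ± 0.05 on control arrays. Before normalization it was 14.39 ± 0.26, 16.09 ± 0.11 and 14.39 ± 0.46 log2 in that order. Of the 212 probes, 211 were well above background on at least 4 arrays and were tested, and 207 were so on all 12. The probe left out, for the pseudogene Rps4x-ps1, was above background on 2 arrays. A probe of Rpl28, A_44_P778019, entered the test through its 4 laser arrays alone.

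**Figure D1:**
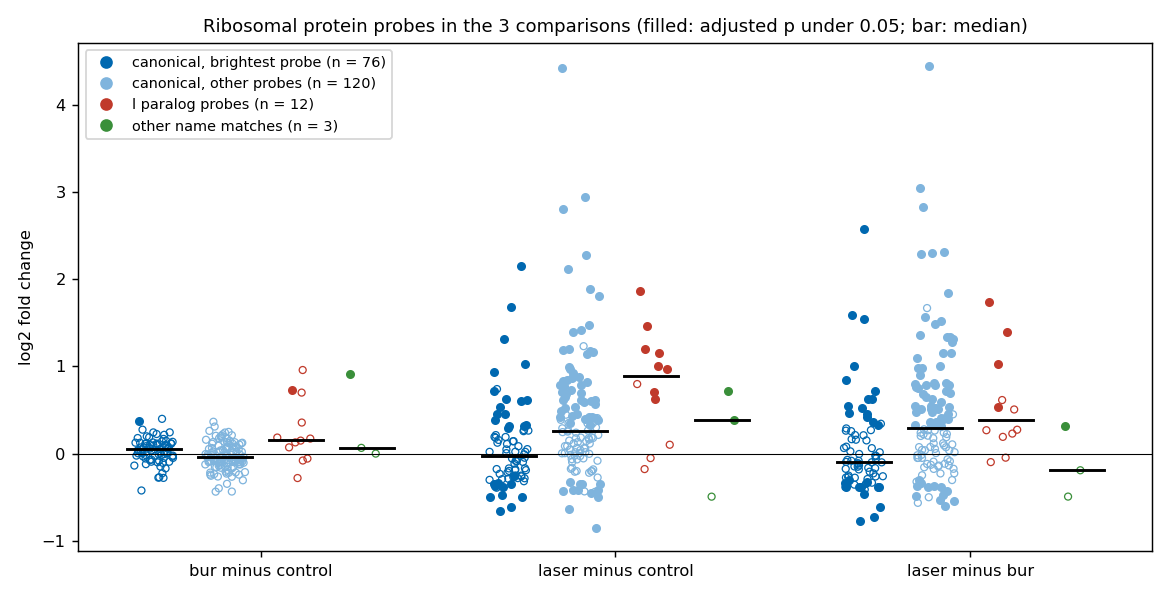
Log2 fold change of the member probes in the 3 comparisons, by class of member (x axis, comparison; y axis, log2 fold change of group means, 4 arrays a group). Each circle is 1 probe, filled where called, and bars are medians. By the brightest probe, 69 of the 76 canonical genes lie within 0.25 of 0 for bur against control. For laser against control 33 do, and for laser against bur 31. The member probes together span -0.44 to 0.96 for bur against control, and from below -0.5 to above 4 in both comparisons with laser.

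Bur drilling against periosteum removal alone asks what cutting the bone mechanically adds. Ribosomal protein levels moved little. By their brightest probe, 1 canonical gene of 76 was called higher and 0 lower by limma at an adjusted p under 0.05, against 22.0% of the 16330 genes tested that way (11.3% higher, 10.7% lower). The median log2 fold change of the 76 was 0.05, and 69 of them lay within 0.25 of no change. Their median absolute log2 fold change was 0.09, against 0.36 over all genes. Of 479 other probes at least as bright as the lower quartile of the members, 53 were called higher and 63 lower, and their median absolute value was 0.21. The 4 bur and 4 control arrays did not overlap for 8 of the 76, against 23.7% of all genes.

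The canonical gene called was Rpl18, a protein of the large subunit. It read 14.84, 15.01, 15.05 and 15.04 log2 on bur arrays against 14.64, 14.44, 14.68 and 14.69 on control arrays, and 14.62, 14.49, 14.61 and 14.79 on laser arrays. All bur arrays lay above all control and laser arrays. The log2 fold change for bur against control was 0.38 ± 0.11 (SE), with a limma adjusted p of 0.037. The call was lost under both other scalings and in 7 of 12 fits without 1 array.

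Among the remaining members, bur drilling was called for Rps27l and Rps4y2. Rps27l is the paralog of Rps27 and a target gene of p53. It read 11.51, 11.13, 11.48 and 11.65 log2 on bur arrays and 10.71, 10.71, 10.64 and 10.77 on control arrays. Every bur array was higher than every control array, by 0.73 ± 0.13 (SE) in the means (1.66-fold, limma adjusted p = 0.0036). Rps4y2, a further gene of the Rps4 family, read 8.81, 9.15, 8.57 and 9.32 on bur arrays and 8.19, 7.90, 7.73 and 8.38 on control arrays. Here too the groups did not overlap, with a difference of 0.91 ± 0.20 (limma adjusted p = 0.0079).

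The small counts for bur drilling depended on the background correction. With normexp correction of the spot means, 17 of the 76 canonical genes were called higher and 8 lower. In that setting 7365 of all 27196 kept probes were called, against 5514 in the main setting. The canonical genes were thus no longer called far less often than the array as a whole. The median absolute log2 fold change of the 76 canonical genes was 0.17 with normexp and 0.09 in the main setting. For member probes the median own SD was 0.13 log2 in both settings, and the prior SD fell from 0.28 to 0.13. With a spread prior that follows signal, the prior SD was 0.18, and 2 canonical genes were called higher and 1 lower. Of all 27196 kept probes, 5911 were called with that prior. The part of the larger changes and of the prior SD in the normexp counts was not tested. A value that misses the threshold does not show equal levels. The fitted change of every canonical gene was smaller than 0.5 log2 in the main setting.

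Laser ablation against periosteum removal gave many calls in both directions. Of the 76 canonical genes, 17 were called higher and 11 lower by their brightest probe, together 36.8%, against 33.5% of all genes (16.4% higher, 17.2% lower), so the share was near the background. The median log2 fold change was -0.03, while 14 genes moved by more than 0.5 and 4 by more than 1. The laser and control arrays did not overlap for 41 of the 76, against 36.0% of all genes. Among the 479 other probes as bright as the members, 94 were called higher and 124 lower, together 45.5%. For 260 of these 479 the laser and control arrays did not overlap. Of the 46 large subunit genes 12 were higher and 7 lower, and of the 30 small subunit genes 5 and 4. The split moved with the scaling: it was 20 higher and 2 lower after 75th percentile scaling, with a median of 0.23, and 26 and 1 after median scaling, with a median of 0.25. Of all 27196 kept probes, 9114 were called under the former and 9065 under the latter, against 9250 in the main setting. Higher calls came to 11 without laser 1, without laser 2, or without control 1 and control 4, the arrays with the high neural signal. Lower calls came to 4 without laser 1 or laser 3, 5 without control 3, control 4 or both control 1 and control 4, 6 without laser 4 and 7 without laser 2.

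The rises were led by Rps23, a small subunit protein of the decoding centre. Its 1 probe read 14.58, 14.56, 14.57 and 14.56 log2 on laser arrays, 13.20, 12.65, 12.10 and 11.74 on control arrays and 11.97, 12.13, 11.82 and 12.06 on bur arrays. The laser arrays lay close together and above all others. The log2 fold change for laser against control was 2.15 ± 0.25 (SE; 4.43-fold, limma adjusted p = 0.00011). Rpl27, a large subunit protein with 1 probe, read 11.01, 10.91, 11.10 and 10.92 on laser arrays, against 9.29, 9.29, 9.20 and 9.41 on control and 9.76, 9.18, 9.47 and 9.34 on bur arrays. Its laser values exceeded all others, by 1.68 ± 0.13 over control (limma adjusted p = 5.5e-06).

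Rps24, a small subunit protein needed for processing of the ribosomal RNA precursor, rose on both of its probes, by 1.03 ± 0.16 and 1.14 ± 0.17 (SE; limma adjusted p = 0.00063 and 0.00061). Its brighter probe read 15.18, 15.32, 15.25 and 15.26 on laser arrays and 14.57, 14.36, 13.94 and 14.03 on control arrays, without overlap. Rpl13 rose on each of its 3 probes, by 0.57 to 1.0. Rpl35 rose on both, by 0.94 and 2.28. Rps9 rose by 0.61 on its 1 probe. For these 6 genes, by the brightest probe, the calls for laser against control held under every alternative run on single probes.

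The stalk of the large subunit, formed by Rplp0, Rplp1 and Rplp2, recruits the elongation factors. Rplp0 read 16.63, 16.44, 16.25 and 16.36 log2 on laser arrays against 15.93, 15.90, 15.57 and 15.78 on control arrays, without overlap. Its log2 fold change was 0.63 ± 0.12 (SE, limma adjusted p = 0.0029), and against bur 0.62. Rplp0 is often taken as a reference gene in PCR work. Here its 1 probe read higher on the laser arrays, where slide and treatment cannot be told apart. For bur against control it stood at 0.005. Rplp1 was higher by 0.33 ± 0.10 (limma adjusted p = 0.031), a call lost in 7 of 12 fits without 1 array. Rplp2 read 15.61, 15.67, 15.63 and 15.78 on laser and 15.95, 15.88, 16.36 and 16.08 on control arrays, a difference of -0.39 ± 0.15 that did not pass (limma adjusted p = 0.057). Its second probe stood at -0.06.

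The falls were smaller. By their brightest probes, the lowest were Rpl27a at -0.66 ± 0.12 (SE), Rps27 at -0.62 ± 0.10, Rps18 at -0.50 ± 0.14, Rps3a at -0.50 ± 0.16 and Rpl9 at -0.48 ± 0.12, with limma adjusted p between 0.0011 and 0.029. Rps27, a zinc finger protein of the small subunit, read 14.75, 14.70, 14.79 and 14.71 log2 on laser arrays, 15.23, 15.34, 15.50 and 15.35 on control arrays and 15.40, 15.40, 15.48 and 15.61 on bur arrays, so that laser lay below both. Rps18 read 15.26, 15.12, 15.41 and 15.41 on laser and 15.55, 15.86, 15.93 and 15.89 on control arrays. Under 75th percentile scaling Rps27 stood at -0.35 and Rps18 at -0.23, neither called, and the calls of Rps3a were lost in 6 of 12 fits without 1 array. Rpl9, a large subunit protein, stayed called against control under both other scalings by its brightest probe. Its 5 probes ranged from -0.49 to 0.88, with 1 called higher, 2 lower and 2 not called. Of the 5 probes of Rps27, 2 were called higher, 2 lower and 1 not. Of the 3 probes of Rpl27a, 2 were called higher and 1 lower, and of the 3 of Rps18, 1 was lower and 2 were not called.

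Rpl5 and Rpl11 bind the small 5S ribosomal RNA and, when free, the p53 regulator Mdm2. Rpl5 stood at -0.39 ± 0.12 (SE, limma adjusted p = 0.025) by its brightest probe and at -0.22, not called, by its other one. Rpl11 stood at 0.05 and 0.18, neither called. Rpl3, which helps form the peptidyl transferase centre, stood at -0.35 ± 0.10 (limma adjusted p = 0.024). Calls for Rpl5 and Rpl3 were lost under both other scalings. Rps6, the substrate of the S6 kinases, stood at 0.19 against control, not called, and was higher than in bur bone by 0.36 ± 0.11 (limma adjusted p = 0.025). None of the 5 probes of Rps19, a gene mutated in Diamond-Blackfan anaemia, was called against control, with values from -0.28 to 0.29, and the 4 probes of Rpl39 lay between 0.04 and 0.11.

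Laser ablation against bur drilling compared the tools for cutting. It shares the laser arrays with the comparison above, so each set of values is given on its own. Of the 76 canonical genes 15 were called higher and 13 lower, together 36.8%, against 26.9% of all genes (12.8% higher, 14.0% lower), and the median was -0.10. The split was 19 and 3 after 75th percentile scaling, with a median of 0.15, and 23 and 2 after median scaling, with a median of 0.21. Of all 27196 kept probes, 8513 and 8114 were called under these scalings, against 7870 in the main setting. Rps23 stood at 2.57 ± 0.25 (SE), Rpl17 at 1.59 ± 0.13, Rpl27 at 1.55 ± 0.13 and Rps24 at 1.01 ± 0.16 (limma adjusted p between 6.0e-06 and 0.00079). At the low end Rpl27a stood at -0.77 ± 0.12 and Rps27 at -0.73 ± 0.10 (limma adjusted p = 0.0008 and 0.00041). The groups did not overlap for 44 of the 76, against 32.8% of all genes. Among the 479 other probes as bright as the members, 98 were called higher and 140 lower, together 49.7%. For 282 of these 479 the groups did not overlap, so the canonical genes did not stand out from probes of like brightness. Lower calls came to 6 without laser 1, 8 without laser 2 and 7 without laser 3, laser 4, bur 3 or bur 4.

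The probe chosen decided the direction for several genes. Probes other than the brightest of a canonical gene gave 50 higher and 12 lower of 120 for laser against control, with a median of 0.26, against 34.0% of all 27196 kept probes called (17.4% higher, 16.6% lower). The same 120 probes gave 0 higher and 0 lower for bur against control, against 20.3% of all kept probes (10.8% higher, 9.49% lower). With the mean of a gene's probes in place of the brightest, 28 of 76 canonical genes were higher and 2 lower for laser against control. In that setting 5229 of all 16317 genes were called.

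The case with the widest range was Rpl27a, a large subunit protein read by 3 probes. A_44_P1367078 lies at chr1:167116751-167117714 of the rn4 build, on the plus strand, a span longer than the probe. A_44_P1366918 lies downstream at chr1:167117745-167117804, plus strand. Both are shown because they were called in opposite directions, with adenines in capitals:
Rpl27a A_44_P1367078: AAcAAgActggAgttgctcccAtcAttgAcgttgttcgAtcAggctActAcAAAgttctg
Rpl27a A_44_P1366918: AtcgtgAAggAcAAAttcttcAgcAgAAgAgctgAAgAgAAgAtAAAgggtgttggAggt

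A_44_P1367078 read 14.81, 14.92, 14.93 and 14.92 log2 on laser arrays, 15.39, 15.48, 15.59 and 15.77 on control arrays and 15.64, 15.47, 15.82 and 15.75 on bur arrays. On this probe all laser arrays were the lowest. A_44_P1366918 read 11.53, 11.36, 11.34 and 11.30 on laser arrays, 7.17, 7.14, 6.80 and 6.73 on control arrays and 7.16, 6.59, 7.10 and 6.87 on bur arrays. On this probe all laser arrays were the highest, with a log2 fold change of 4.42 ± 0.16 (SE; 21.5-fold, limma adjusted p = 1.6e-08). The third probe, A_44_P1082703, stood at 0.38 (limma adjusted p = 0.038). The 3 probes stood at 0.11, -0.03 and 0.16 for bur against control, none called.

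Rpl17, which lines the tunnel through which the new peptide leaves, had 2 probes called in opposite directions. A_64_P029646 lies at chr18:71864449-71864508 and A_44_P1159603 at chr18:71865718-71866112, both on the plus strand of rn4. Adenines are again in capitals:
Rpl17 A_64_P029646: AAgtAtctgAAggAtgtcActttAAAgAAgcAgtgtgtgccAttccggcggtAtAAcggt
Rpl17 A_44_P1159603: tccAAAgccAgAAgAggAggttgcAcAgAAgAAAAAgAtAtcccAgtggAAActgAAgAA

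The first read 12.50, 12.56, 12.68 and 12.72 log2 on laser arrays against 13.15, 13.07, 13.40 and 13.38 on control arrays, a log2 fold change of -0.64 ± 0.14 (SE, limma adjusted p = 0.0045). The second read 14.37, 14.38, 14.38 and 14.57 against 13.09, 13.36, 12.98 and 13.01, a log2 fold change of 1.32 ± 0.13 (limma adjusted p = 2.5e-05). Each was without overlap, one below and one above the control arrays. Neither was called for bur against control.

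**Figure D2:**
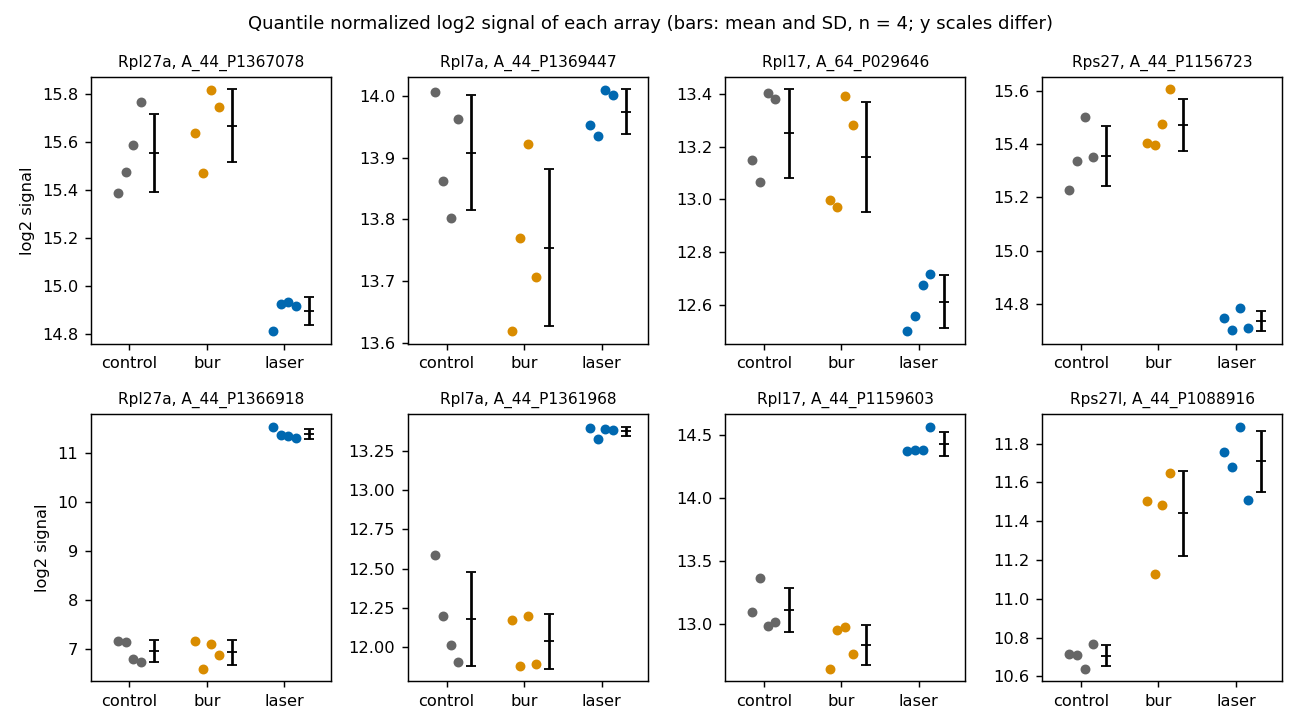
Normalized log2 level on each of the 12 arrays for pairs of probes of Rpl27a, Rpl7a and Rpl17 and for Rps27 and its paralog Rps27l (x axis, group; y axis, log2 level, with a scale of its own in each panel). Dots are arrays and bars the mean and SD of 4. The 2 probes of Rpl27a and of Rpl17 place the laser arrays on opposite sides of the control arrays.

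Over the 60 member genes with at least 2 kept probes, the probes differed in call for 38 genes in laser against control, or 63.3%, against 44.5% of the 4778 genes of that kind on the array. In 11 of them probes were called in opposite directions, or 18.3%, against 3.37% of all. These 11 were Rpl27a, Rpl7, Rpl17, Rpl29, Rps10, Rps27, Rpl9, Rpl38, Rpl35a, Rpl15 and Rpl21. For laser against bur 39 of the 60 differed, against 40.1% of all, and 13 were opposite, against 2.85%. In bur against control 0 of the 60 differed, against 20.6% of all, and 0 were opposite, against 0.188%. No probe of these 60 genes was called there, so their calls could not differ and do not show agreement. With normexp correction, 34 of the 60 differed for bur against control, and the share over all genes is not given for that setting. Member probes had a median SE of 0.12 log2 in the main setting, against 0.23 over all kept probes. Member genes had up to 8 probes. The part of the SE and of the number of probes in these shares was not tested.

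The range of log2 fold change between the probes of a gene needs no threshold, though it can grow with the number of probes. Its median over the 60 genes was 0.16 log2 for bur against control, 0.64 for laser against control and 0.70 for laser against bur. For the 4718 other genes it was 0.31, 0.52 and 0.50. In laser against control 20 of the 60 genes had a range over 1, up to 5.08 for Rpl27a. In 6 genes, namely Rpl35, Rpl36al, Rpl7l1, Rpl19, Rpl13 and Rps24, all probes were called, and all were higher. The dimmest probe of a gene had a higher log2 fold change than the brightest in 43 of the 60 genes in laser against control, in 47 in laser against bur and in 12 in bur against control.

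**Figure D3:**
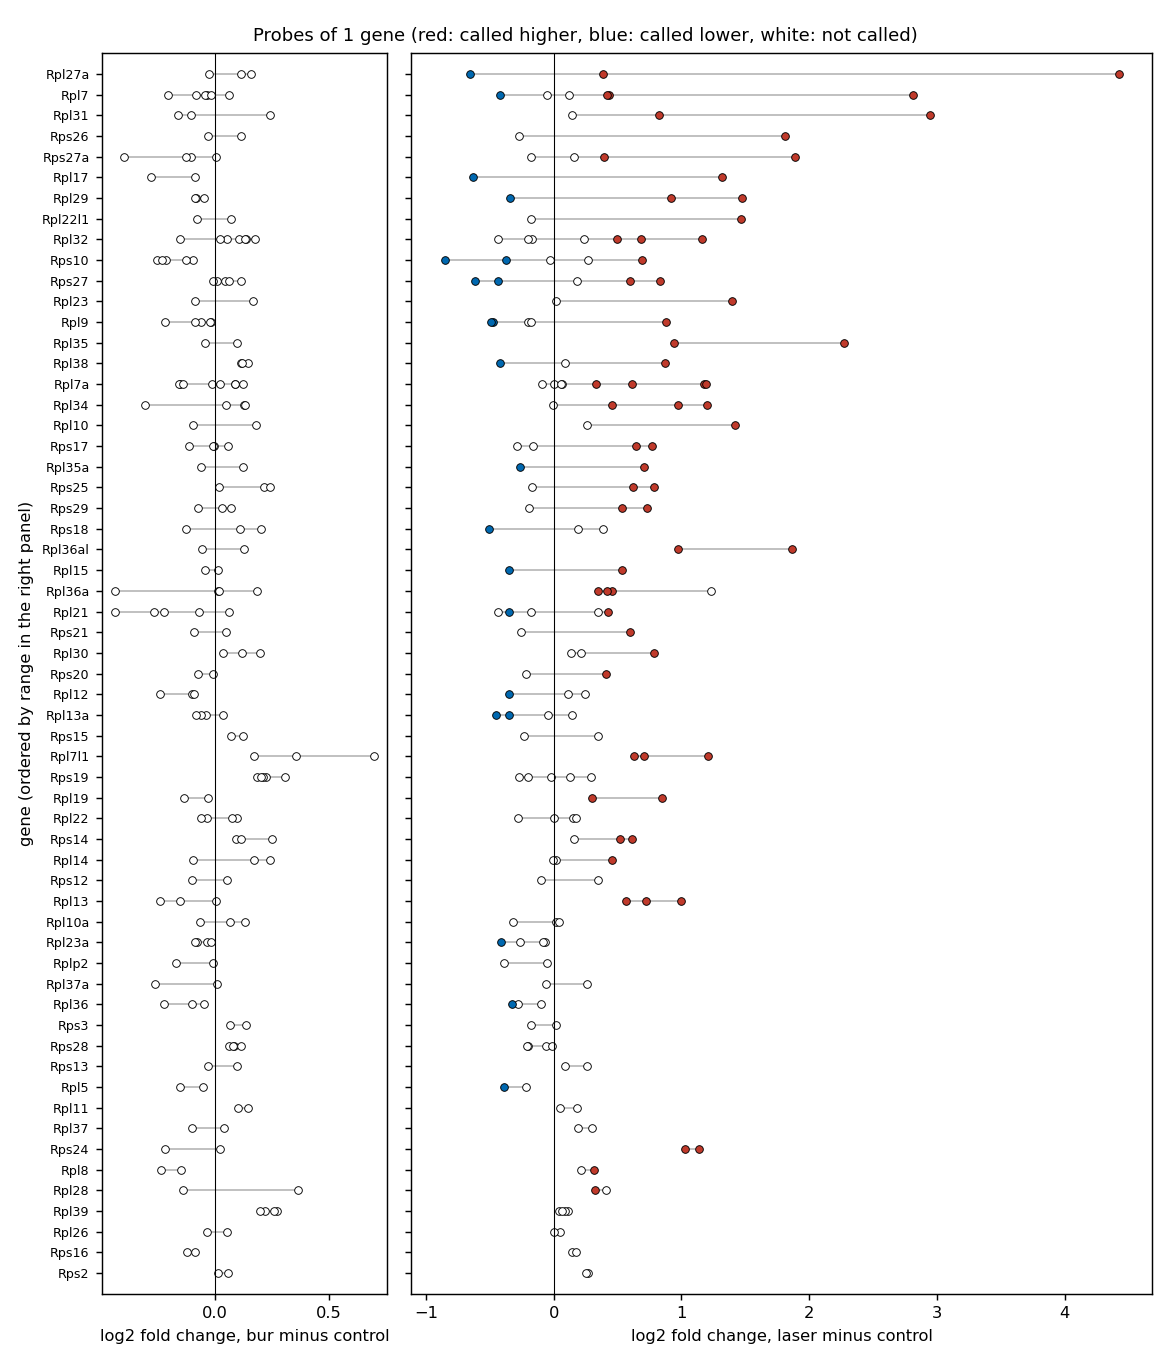
Log2 fold change of kept probes of 59 member genes with several probes, 1 line a gene, for bur against control (left) and laser against control (right), with x scales that differ (x axis, log2 fold change; y axis, gene). Points of a gene lie within a median range of 0.16 for bur against control and 0.64 for laser against control.

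Other genes had wide ranges as well. Rpl7, a large subunit protein with 6 probes, ranged from -0.42 to 2.81 for laser against control. Its highest probe, A_44_P1370171, read 9.96, 10.02, 9.80 and 9.73 log2 on laser arrays against 7.39, 7.15, 6.89 and 6.84 on control and 7.63, 6.87, 6.89 and 6.82 on bur arrays. The 5 probes of Rps27 stood at -0.62, -0.44, 0.18, 0.59 and 0.83. The 3 probes of Rpl31 stood at 0.14, 0.82 and 2.95. In each of these 3 genes, no probe was called for bur against control.

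The base composition of the probe varied along with the laser value. Agilent probes are 60 bases long, and adenine made up 15% to 50% of the member probes, with a median of 33.3% against 28.3% for other kept probes. Across the 211 tested member probes, which share arrays and often a gene, the adenine share correlated with the log2 fold change at a Pearson's r of 0.508 (Spearman's rho 0.577) for laser against control and 0.505 (rho 0.558) for laser against bur. For bur against control r was -0.0766 (rho -0.102). Among the 479 other probes as bright as the members r was 0.541 for laser against control, and among all 26985 other kept probes it was 0.187. The pattern was thus not particular to ribosomal protein genes. Nor was it particular to adenine. Among member probes r for laser against control was -0.281 for cytosine, -0.261 for thymine and -0.0172 for guanine. Among the 26985 other kept probes thymine stood at -0.181, cytosine at 0.0184 and guanine at -0.00869. The shares of the bases in a probe depend on each other.

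In laser against control, 57 member probes with under 30% adenine gave 5 higher and 15 lower calls, with a median log2 fold change of -0.18. The 66 probes with 30% to under 35% gave 16 higher and 4 lower, median 0.06. The 59 probes with 35% to under 40% gave 35 higher and 3 lower, median 0.45. The 29 probes with 40% or more gave 21 higher and 1 lower, median 0.84. Of all other kept probes, 12.9% were called higher and 20.2% lower under 30% adenine, and 40.3% higher and 5.45% lower at 40% or more. The classes in between had 15.4% and 23.7% higher, with shares of lower calls between those of the outer classes. In bur against control the medians of these classes were -0.01, 0.03, 0.01 and -0.09. Within genes, the deviation of 184 probes from the mean of their gene still correlated with the deviation in adenine share, at r of 0.495 for laser against control and -0.199 for bur against control. The deviation in brightness correlated too, at r of -0.447 for laser against control and 0.350 for bur against control. The part of each in the laser values was not tested.

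Among probes that rose by over 2 log2 with a high adenine share was A_44_P1366430 of Rpl35 (chr3:18788156-18790013, minus strand of rn4). It is shown with adenines in capitals for comparison with the falling probe of Rpl27a:
Rpl35 A_44_P1366430: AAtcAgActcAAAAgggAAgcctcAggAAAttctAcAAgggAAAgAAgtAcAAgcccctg

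Adenine made up 41.7% of it, against 26.7% of A_44_P1367078. The share did not order every probe. A_44_P1368373 of Rpl7, with 38.3% adenine, was lower by 0.42 (limma adjusted p = 0.008), while A_44_P1370171 of the same gene, with 41.7%, was the one at 2.81.

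**Figure D4:**
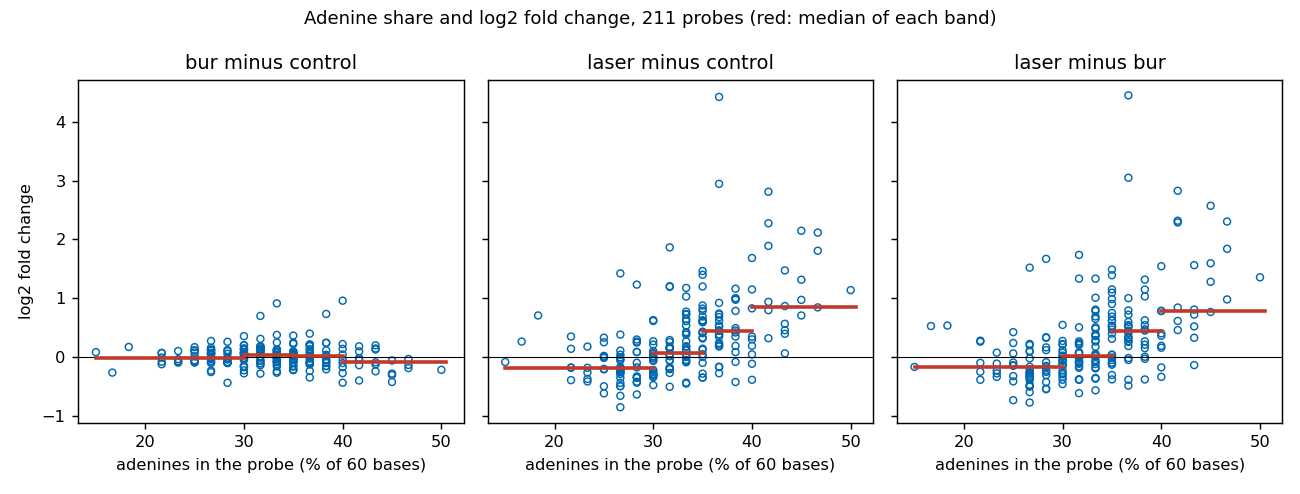
Adenine share of each tested member probe (x axis, percent of 60 bases) against its log2 fold change (y axis) in the 3 comparisons, with the median of each class as a line. The class of 29 probes with 40% adenine or more has a median of 0.84 for laser against control and -0.09 for bur against control.

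Some probes of a gene lie over nearly the same bases, so that they read the same part of the transcript or of its near-identical copies. There were 36 such pairs in 21 member genes, sharing at least 50 bases with at most 6 mismatches. On each array the 2 normalized levels were subtracted, which removes a shift common to all probes of the array. It does not remove what the normalization does differently at different signal levels. These differences did not overlap between laser and control arrays for 24 of the 36 pairs, against 29.6% of the 253 pairs of all genes. They did not overlap for 24 pairs in laser against bur, against 30.8%, and for 0 in bur against control, against 3.56%. Many of the pairs are of Rpl7a and share probes. The median absolute shift was 0.30 for laser against control and 0.08 for bur against control. By the exact two-sided permutation test the smallest p was 0.0286, the smallest that 4 against 4 arrays allow. After Benjamini-Hochberg adjustment over 108 tests the smallest was 0.0643, so that no pair passed.

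The largest shift for laser against control, 2.12, was in a pair of Rpl31 that shares 57 bases with 3 mismatches. Another example was a trio of Rpl7a, a large subunit protein, whose probes begin at the same base of the transcript (chr3:5810185-5810398, plus strand of rn4, for the first). Capitals mark bases that differ within the trio:
Rpl7a A_44_P1369447: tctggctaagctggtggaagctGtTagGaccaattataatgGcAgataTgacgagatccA
Rpl7a A_64_P015603: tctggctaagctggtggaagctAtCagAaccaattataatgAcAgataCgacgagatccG
Rpl7a A_44_P1361968: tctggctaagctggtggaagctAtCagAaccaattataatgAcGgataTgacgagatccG

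A_44_P1361968 and A_44_P1369447 differ at A23G, C25T, A28G, A42G, G44A and G60A, counted from 1 at the 5′ end of the former. A_44_P1369447 read 13.95, 13.94, 14.01 and 14.00 log2 on laser arrays and 14.01, 13.86, 13.80 and 13.96 on control arrays, with overlap. A_44_P1361968 read 13.40, 13.33, 13.39 and 13.38 on laser and 12.59, 12.20, 12.01 and 11.91 on control arrays, without overlap. Their log2 fold changes were 0.07 ± 0.11 (SE) and 1.19 ± 0.15, and A_64_P015603 stood at 1.18 ± 0.13. Within an array, the former pair was 1.73 ± 0.26 (SD, n = 4) apart in control, 1.72 ± 0.20 in bur and 0.60 ± 0.03 in laser samples.

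For Rpl21 and Rps10, overlapping pairs were split in direction or size. In each pair capitals mark the differing bases (Rpl21, chr12:8717034-8717545 and chr12:8717030-8717541, minus strand; Rps10, chr20:5852785-5852844 and, as annotated, chr2:81390141-81390200, minus strand):
Rpl21 A_44_P1366902: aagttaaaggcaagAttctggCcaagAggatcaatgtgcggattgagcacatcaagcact
Rpl21 A_44_P1366795: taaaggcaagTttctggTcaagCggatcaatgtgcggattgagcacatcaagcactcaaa
Rps10 A_44_P1370240: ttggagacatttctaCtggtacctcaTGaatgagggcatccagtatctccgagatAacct
Rps10 A_44_P1369452: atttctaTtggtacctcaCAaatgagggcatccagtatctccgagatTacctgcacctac

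The Rpl21 probes differ at A15T, C22T and A27C, counted in A_44_P1366902. They stood at -0.35 ± 0.11 (SE) and 0.42 ± 0.13 for laser against control, both called (limma adjusted p = 0.030 and 0.026). The Rps10 probes differ at C16T, T27C, G28A and A56T, counted in A_44_P1370240. They stood at -0.03 and -0.85 ± 0.14 (limma adjusted p = 0.89 and 0.00081), and the second is placed on another chromosome than the first. Of all 59 member genes with several placed probes, 5 had probes on more than 1 chromosome.

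In 7 pairs the shared bases were identical, and the probes differed only at their ends. For 4 of these 7 the differences did not overlap between laser and control arrays. The largest shift among these was in Rpl38, a small protein of the large subunit, at 0.78. Its 2 probes were -0.62 ± 0.14 (SD, n = 4) apart in control, -0.59 ± 0.13 in bur and 0.16 ± 0.07 in laser samples, and so changed order.

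**Figure D5:**
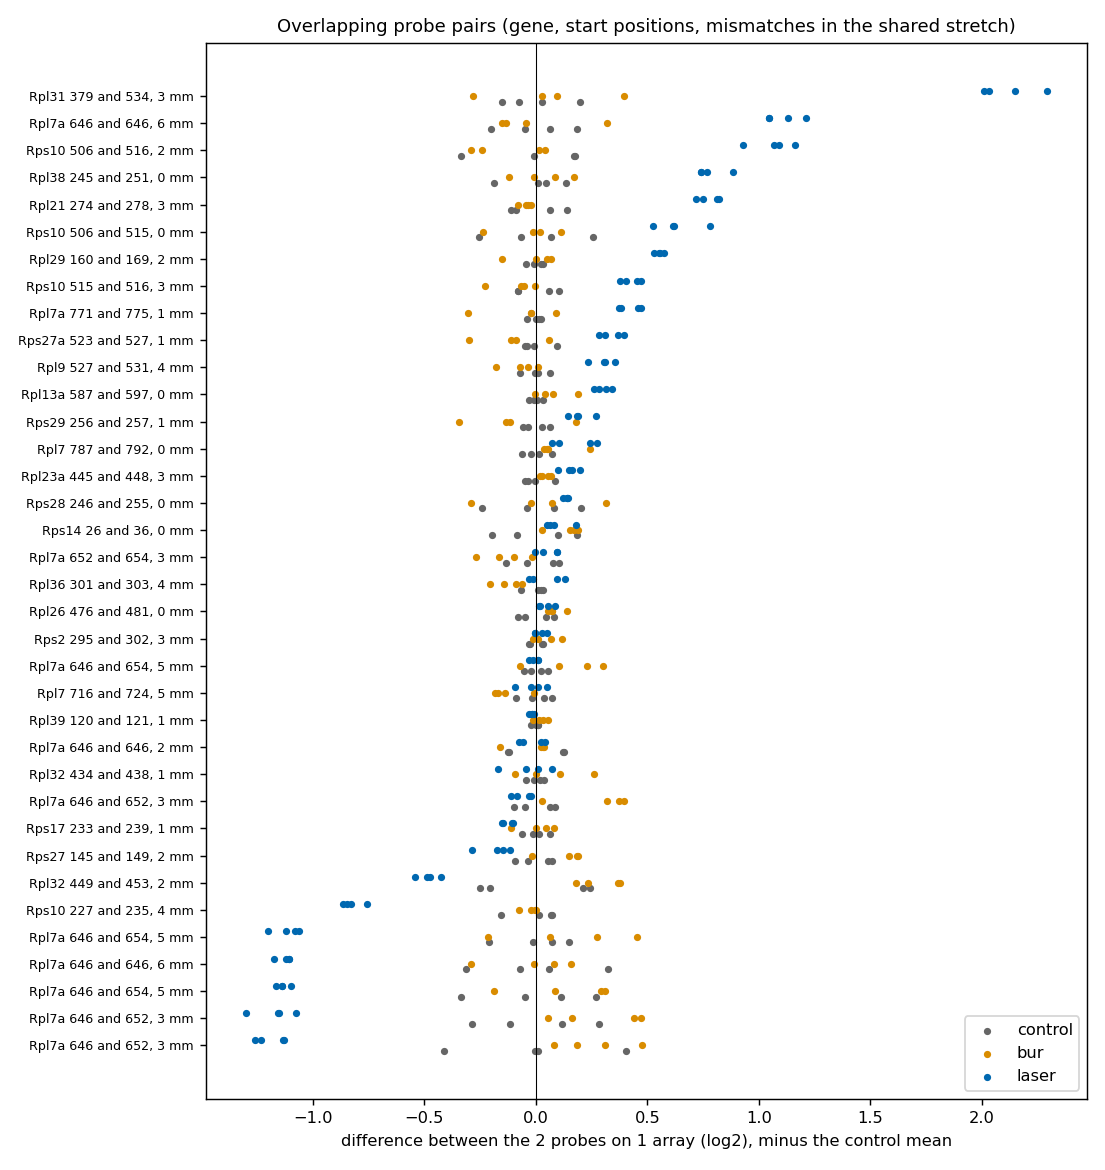
Difference between the 2 probes of each overlapping pair on each array, less its mean over control arrays, for 36 pairs (x axis, log2 difference; y axis, pair by gene and start in the transcript; dots are arrays by group). Bur dots lie around the control dots, and laser dots lie apart from control dots in 24 of the pairs.

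Of the 12 paralog probes, 8 were called higher and 0 lower for laser against control, where 17.4% of all kept probes were called higher and 16.6% lower. Their median log2 fold change was 0.89. For laser against bur 4 of 12 were higher, against 14.4% of all kept probes, and for bur against control 1 of 12, against 10.8%. Of Rps27l, the laser arrays read 11.76, 11.68, 11.89 and 11.51 log2, which exceeded control by 1.0 ± 0.13 (SE; limma adjusted p = 0.00025). Its difference from bur was 0.27 (95% interval -0.03 to 0.56, limma adjusted p = 0.16). It was the one member called higher in both cut groups against control together with Rps4y2, which stood at 0.72 ± 0.20 after laser (limma adjusted p = 0.015). Its canonical partner Rps27 was not called for bur against control on any of its 5 probes.

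Rpl22l1, which can replace the RNA-binding Rpl22, rested on 2 probes that differed. A_44_P1370698 read 11.18, 11.20, 10.98 and 10.88 log2 on laser and 9.84, 9.65, 9.40 and 9.49 on control arrays, higher by 1.46 ± 0.15 (SE, limma adjusted p = 3.4e-05). A_64_P085700 stood at -0.18 ± 0.15 (limma adjusted p = 0.38). None of the 4 probes of Rpl22 was called against control, with values from -0.28 to 0.18. Rpl36al rose on both probes, by 0.97 and 1.86, and Rpl7l1 on its 3 probes, by 0.63 to 1.21.

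Paralogs known from germ cells or muscle were at the dim end. Rpl10l, a testis form of Rpl10, read 5.43, 6.46, 5.77 and 5.46 log2 on laser and 4.05, 5.29, 4.97 and 4.21 on control arrays, higher by 1.15 ± 0.31 (SE, limma adjusted p = 0.016). The call was lost without control 1 and control 4 (0.66, adjusted p = 0.16). For bur against control Rpl10l stood at 0.96, not called. In the authors' deposited table it stood at 0.74 after bur and 0.73 after laser, both called. Of 6 testis germ cell markers 2 were bright enough to test and none was called. Rpl3l, the muscle form of Rpl3, stood at -0.05 (adjusted p = 0.96). Rpl39l stood at 0.80 (adjusted p = 0.37), was above background on 7 of 12 arrays, and has a probe that differs from one of Rpl39 at 10 of 60 bases, given here with those bases in capitals (chr10:5409629-5409688, minus strand, and chrX:7826012-7827792, plus strand, of rn4):
Rpl39 A_44_P1158980: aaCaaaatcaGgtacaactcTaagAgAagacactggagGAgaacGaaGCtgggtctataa
Rpl39l A_64_P112305: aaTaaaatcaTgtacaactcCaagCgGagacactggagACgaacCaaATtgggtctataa

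The pseudogene probe Rpl37a-ps1 was higher by 0.38 ± 0.10 (SE, limma adjusted p = 0.016). It shares 53 bases without a mismatch with a probe of Rpl37a, so the transcripts cannot be told apart. Rps19bp1, a nucleolar binding partner of Rps19, stood at -0.50, not called.

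Genes that work with the ribosome were taken from lists, by their brightest probe. Over all genes 16.4% were called higher and 17.2% lower for laser against control, and 11.3% and 10.7% for bur against control, which is the background for each count of this and the next paragraph. Of 4 ribosomal proteins whose names fall outside the rule, Rpsa was lower after laser ablation (-0.43, limma adjusted p = 0.020), and no other was called. Among 14 elongation factors and other genes with oligopyrimidine mRNAs, laser against control gave 1 higher and 3 lower. The poly(A)-binding protein gene Pabpc1 stood at -1.14, Tpt1 at -0.62, Eif3h at -0.47 and Eef1g, an elongation factor subunit, at 0.70. Pabpc1 was also the one called for bur against control, at -0.74 (limma adjusted p = 0.018). Of 24 initiation factors 2 were higher and 4 lower after laser, with Eif1, which guards start codon choice, at -0.68. After bur drilling 1 was higher and 2 lower.

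Ribosome biogenesis genes gave 9 higher and 1 lower of 36 for laser against control, with a median of 0.09, against 33.5% of all genes called. Nop56, a core protein of box C/D nucleolar particles, stood at 1.0 and Nop14, a small subunit assembly factor, at 1.0 (limma adjusted p = 1.9e-05 and 9.0e-05). After bur drilling 1 biogenesis gene was higher and 2 lower, among them the pseudouridine synthase Dkc1 at -0.83 and the RNA polymerase I factor Ubtf at -0.85. Of 74 mitochondrial ribosomal protein genes 16 were higher and 12 lower after laser and 8 and 3 after bur drilling. Among 14 regulators, Maf1, a repressor of RNA polymerase III, was lower in both cut groups (-1.16 and -0.78), and Eif4ebp1, an mTOR target that holds back initiation, was higher in both (0.41 and 0.83).

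The authors' deposited table of comparisons gives 1 entry per accession and 98 entries for members. For the 56 member accessions with several probes, the deposited expression values correlated over the 12 arrays at a median of 0.99996 with the mean of all spots of the accession and at 0.937 with the probe named in the entry. Of 85 canonical entries in the authors' deposited table, 39 were higher and 5 lower for laser against control, against 39.2% of all 21080 entries called. The authors' deposited table has 42 higher and 5 lower for laser against bur (31.7% of all), and 4 and 5 for bur against control (31.3%). In the authors' deposited table the entry for Rpl27a carries the name of A_44_P1367078 and a log2 fold change of 3.51 for laser against control, where that probe by itself stood at -0.66. In the authors' deposited table Rpl22l1 carries the name of the uncalled probe and a value of 0.84, and Rps27 stands at -0.09. The authors' deposited table gives 0.59 and 0.79 for Rps27l after bur and laser.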

How the data were processed

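From each of 12 bone samples, 200 ng of RNA gave Cy3 cRNA for a single-colour array, per the labels' protocols. The deposited scanner files hold a background-corrected intensity for each spot and flags; per the submitters' processing notes the software was Agilent Feature Extraction 11.0.1.1. In the authors' deposited table of expression the values are log2 and, by its title, quantile normalized. Per the file headers, the authors' comparison tables give a log2 fold change with raw and adjusted p-value for each entry. Aligned positions are on rn4 per the file headers.

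Here the processed signal was taken to log2, control and outlier spots were left out, spots of 1 probe were averaged, and arrays were quantile normalized. The 27196 probes well above background on at least 4 of 12 arrays entered 1 limma fit (limma 3.58.1, R 4.3.3) of 3 groups of 4, with calls at p under 0.05 after Benjamini-Hochberg adjustment over all of them. A gene was represented by its brightest kept probe. The number of arrays limits the precision. There are no counts behind the values. Overlapping pairs were tested by exact permutation in scipy 1.17.1. Gene names are the file's; 195 member probes matched a RefSeq accession (GRCr8), 4 of them under another symbol.

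Named genes were, per comparison, up to 8 highest and 8 lowest called canonical genes without overlap, up to 8 called members outside the canonical list, the 8 widest probe ranges, up to 4 of each list by p, and a fixed list; a subset is printed, and 1 gene that enters the counts is not reported here by itself. Rpl15, Rpl19, Rpl29, Rpl35a and Rpl38 complete counts and were named after their values were seen. Members and lists were chosen with earlier results of these data known. The code was tested on simulated data. Alternatives covered scaling, background correction, dim-probe filter, probe choice, samples in the fit, a replicate block, left-out arrays and the authors' values. A spread prior that follows signal was added after seeing the data. A slide block could not be fitted, since the laser group has a slide of its own.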

Additional observations from a re-analysis of the deposited data

Results flagged for a closer look

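Of 192 groups of 4 arrays looked at among the named members, 10 held 1 array far from the other 3, and chance gives about 1 in 20. Control 1 was the low array 3 times: for Rpl9 A_44_P266946 it read 14.07 log2 against 14.36 to 14.41 in the others, for Rpl11 A_64_P070065 14.60 against 14.90 to 14.94, and for Rpl22 A_44_P1159672 12.95 against 13.25 to 13.30. Control 3 read 15.34 for Rpl35a A_64_P046998, where the others all read 15.27, and 13.43 for Rps19 A_44_P1367823 against 13.72 to 13.77. Among laser arrays, laser 1 read 14.81 for Rpl27a A_44_P1367078 against 14.92 to 14.93, laser 3 read 14.38 for Rpl10a A_44_P1093806 against 14.31 to 14.32, and laser 4 read 14.57 for Rpl17 A_44_P1159603 against 14.37 to 14.38 and 14.51 for Rpl39 A_44_P1098723 against 14.60 to 14.61. Bur 2 read 13.68 for Rpl10 A_44_P1098245 against 13.90 to 13.93.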

How the results depend on the processing

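For bur against control, the main values were 1 higher, 0 lower, a median of 0.05, 1 paralog probe and 0 genes whose probes differ. Higher calls came to 0 under 75th percentile scaling, median scaling, the 2 groups alone and without control 1 and control 4, to 17 with normexp, 2 with a spread prior that follows signal and 4 with the authors' values. Lower calls came to 8 with normexp, 4 with the authors' values, and 1 with the prior, with probes above background on all arrays and with 1 probe per gene. The median was -0.016 with the mean of probes and -0.036 with the authors' values. Paralog calls were 3 with normexp, 4 with the authors' values, and 2 with the prior, the stricter filter, the mean of probes and the replicate block. With the mean of probes they count genes in place of probes. Differing genes were 34 with normexp and 2 with the prior.

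For laser against control, higher calls (17) were 26 with median scaling, 28 with the mean of probes, 33 with the authors' values and 11 without control 1 and control 4. Lower calls (11) were 2, 1, 18, 18, 2, 5 and 5 under 75th percentile scaling, median scaling, normexp, the prior, the mean of probes, the authors' values and without those 2 arrays. The median (-0.03) was 0.23, 0.25, 0.029, 0.18 and 0.23 under 75th percentile scaling, median scaling, normexp, the mean of probes and the authors' values. Paralog calls (8 probes) were 5 genes with the mean of probes. For laser against bur, higher calls (15) were 23, 25 and 35 under median scaling, the mean of probes and the authors' values. Lower calls (13) were 3, 2, 23, 20, 2 and 4 under 75th percentile scaling, median scaling, normexp, the prior, the mean of probes and the authors' values. The median (-0.10) was 0.15, 0.21, 0.19 and 0.27 under 75th percentile scaling, median scaling, the mean of probes and the authors' values. Paralog calls (4 probes) were 2 genes with the mean of probes. Rpl35a A_64_P046998, lower for laser against control, turned to 0.00022 under 75th percentile and 0.022 under median scaling. The causes were not tested.

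Leaving out 1 array at a time gave 0 to 1 higher, 0 to 0 lower, medians of 0.01 to 0.07, 1 to 2 paralog probes and 0 to 0 differing genes for bur against control. It gave 11 to 17 higher, 4 to 15 lower, medians of -0.04 to 0.01, 7 to 8 paralog probes and 34 to 40 differing genes for laser against control. It gave 13 to 15 higher, 6 to 14 lower, medians of -0.12 to -0.06, 4 to 5 paralog probes and 30 to 39 differing genes for laser against bur. Lower calls for laser against control fell most without laser 1 (4), laser 3 (4), control 3 (5) and control 4 (5).

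Samples share replicate numbers, and same-numbered arrays share a slide row; the labels tie them to no common animal, day or batch. Deviations of same-numbered arrays correlated at -0.07 to 0.29, over 0.1 in 7 of 12 pairs and not in every one, so the numbers were not treated as pairs. The median for other numbers was -0.03 and 8 of 12 arrays correlated best with their own number, a hint of pairing from the data, not the design. With the replicate block, canonical calls were 1 higher and 0 lower, 16 and 9, and 15 and 11 in the 3 comparisons.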
